A study of Mus musculus with 18 samples.

Results

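A set of 10 genes of the vessel wall were followed in liver and small intestine: Cdh5, Pecam1, Kdr, Tek, Tie1 and Ptprb, which mark endothelial cells in general, and Stab2, Lyve1, Clec4g and Fcgr2b, which mark the sinusoids of the liver. The 10 genes were chosen by symbol, with earlier results of these data known. Each had 1 probe set that the platform annotation assigned to it alone, of 22180 genes with such a probe set. The samples came from recipient mice that shared the genotype C57BL\6, were germ-free and 5 to 6 weeks old when they received gut microbiota, and were kept for 8 weeks afterwards. OMT recipients were given the microbiota of donors 2 years (24 months) old. YMT recipients were given that of young donors, whose age the labels put at 4 weeks in the treatment protocol and at 5 to 6 weeks in the design text. The age of the recipients at sampling is given as 12 weeks in one label and 13 weeks in another. Total RNA of 5 OMT and 4 YMT samples of each tissue was hybridised to Affymetrix arrays, 18 arrays in all. The labels call the samples biological replicates and do not say how many donors or cages stood behind a group, or whether a liver and an intestine came from the same mouse, so p-values measure the spread between these samples.

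Endothelial cells line all vessels and are held together by the adhesion molecules VE-cadherin (Cdh5) and PECAM-1 (Pecam1). Their growth and stability are set by the receptor for vascular endothelial growth factor A (Kdr, VEGFR2) and by the angiopoietin receptor TIE2 (Tek) with its relative TIE1 (Tie1), while the phosphatase VE-PTP (Ptprb) removes phosphate from TIE2 and binds VE-cadherin. In the liver the capillaries are sinusoids, whose fenestrated endothelium also clears waste from the blood through scavenger receptors. Stabilin-2 (Stab2) takes up hyaluronan, LYVE-1 (Lyve1) binds hyaluronan on sinusoidal and lymphatic endothelium, LSECtin (Clec4g) is a C-type lectin, and the inhibitory Fc gamma receptor IIb (Fcgr2b) takes up immune complexes in sinusoids and is also found on B cells and macrophages.

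Promoter sequence is shown as background, because endothelial genes are often bound by ETS family transcription factors, whose sites share the core GGAA. RefSeq promoters (GRCm38.p6, 250 bases before the annotated start and 50 after it) were matched for 6 genes, Kdr, Tek, Tie1, Stab2, Clec4g and Fcgr2b. None was matched for Lyve1, or for Cdh5, Pecam1 and Ptprb, which were also lower in OMT livers. Printed here are the promoters of Kdr (chr5:75978406-75978705, minus strand), Clec4g (chr8:3720602-3720901, minus strand) and Fcgr2b (chr1:170976022-170976321, minus strand), which were lower in OMT livers, and of Tie1 (chr4:118489800-118490099, minus strand), which did not pass the test. All run 5′ to 3′ on the gene's strand, with GGAA or its reverse complement TTCC in capitals.
Kdr: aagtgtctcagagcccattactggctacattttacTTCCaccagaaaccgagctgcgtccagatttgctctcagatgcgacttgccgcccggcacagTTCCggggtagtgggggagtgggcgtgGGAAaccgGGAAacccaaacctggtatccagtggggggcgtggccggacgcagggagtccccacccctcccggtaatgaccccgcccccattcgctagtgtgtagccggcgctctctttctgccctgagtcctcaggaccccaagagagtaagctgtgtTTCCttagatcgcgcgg
Tie1: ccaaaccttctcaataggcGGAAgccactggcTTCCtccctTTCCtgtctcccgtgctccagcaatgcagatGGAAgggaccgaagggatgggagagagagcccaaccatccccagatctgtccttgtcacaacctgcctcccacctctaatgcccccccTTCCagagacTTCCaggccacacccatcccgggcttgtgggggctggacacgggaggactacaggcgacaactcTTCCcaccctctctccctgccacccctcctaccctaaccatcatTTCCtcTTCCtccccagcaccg
Clec4g: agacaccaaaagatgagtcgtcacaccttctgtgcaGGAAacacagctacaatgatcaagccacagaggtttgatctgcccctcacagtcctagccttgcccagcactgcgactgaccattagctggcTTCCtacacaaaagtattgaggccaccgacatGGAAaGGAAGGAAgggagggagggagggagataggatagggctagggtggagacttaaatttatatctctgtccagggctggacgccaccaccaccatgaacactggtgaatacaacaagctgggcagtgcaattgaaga
Fcgr2b: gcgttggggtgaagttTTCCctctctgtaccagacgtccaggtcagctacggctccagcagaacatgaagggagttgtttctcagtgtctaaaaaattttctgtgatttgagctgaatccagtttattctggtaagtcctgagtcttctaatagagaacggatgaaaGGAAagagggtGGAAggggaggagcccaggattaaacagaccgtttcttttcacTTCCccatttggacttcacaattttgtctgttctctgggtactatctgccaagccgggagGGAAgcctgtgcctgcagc
The core was matched 9 times in the promoter of Tie1, 6 times in that of Stab2, 5 times each in those of Kdr, Clec4g and Fcgr2b, and 2 times in that of Tek. Over 32851 promoters of this length the median was 3 matches, and 96% held at least 1. At least 5 matches were found in 28.6% of them, at least 6 in 15.7% and at least 9 in 1.59%. The GATA motif AGATAA, searched on both strands, was found once in the promoter of Tek and in 11.2% of all promoters. The SOX motif ACAAT was found 2 times in that of Tek and 1 time each in those of Clec4g and Fcgr2b, against 31% of all promoters. These matches describe letters in the window and not sites that a factor was shown to bind.

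Array values were log2 levels from robust multi-array averaging (RMA), and array medians ran from 4.12 to 4.22 in liver and from 4.39 to 4.51 in intestine. They were highest on OMT replicates 1 and 2 in both tissues (up to 4.22 in liver and 4.51 in intestine). All 10 genes lay above the array median on all 9 liver arrays, at percentiles of at least 67.2 among the probe sets of an array. On the intestine arrays Tek, Stab2 and Clec4g lay below the median on all 9, and 5 genes lay above it on all 9. The tissue labels fitted the markers: the hepatocyte list averaged 10.85 to 11.01 on OMT liver arrays and 10.90 to 11.01 on YMT liver arrays, and the enterocyte list 11.86 to 12.17 on OMT and 11.26 to 12.10 on YMT intestine arrays. Whole tissue was measured, so that fewer cells of a type and less RNA per cell cannot be told apart. Levels of different probe sets are not on one scale, and comparisons are made within a gene.

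In liver, the mean of each of the 10 genes was lower with OMT than with YMT, and 6 passed the test: Cdh5, Kdr, Ptprb, Clec4g, Fcgr2b and Pecam1. The levels of these 6 in OMT livers were 59.4% to 83.5% of those in YMT livers. None was higher. The test was limma's moderated test at an adjusted p of 0.05 (Benjamini-Hochberg, over 13380 genes), by which 8.78% of all genes were called lower and 10.4% higher in OMT livers. The median log2 difference, OMT minus YMT, was -0.41 over the 10 genes and -0.01 over all genes tested. For 7 genes every OMT liver lay below every YMT liver, which was so for 8.51% of all genes, while 9.64% lay apart in the higher direction. The count of 6 depended on single arrays: it was 2 without OMT replicate 1, 3 without OMT replicate 2 or 5 or without YMT replicate 1, 3 or 4, 5 without OMT replicate 4, and 6 without OMT replicate 3 or YMT replicate 2. Without OMT replicates 1 and 2 together it was also 3 (Cdh5, Kdr and Stab2), with a median difference of -0.31. In each of the 9 fits with 1 array left out all 10 genes kept a lower OMT mean, and their median difference lay between -0.48 and -0.32.

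**Figure D1:**
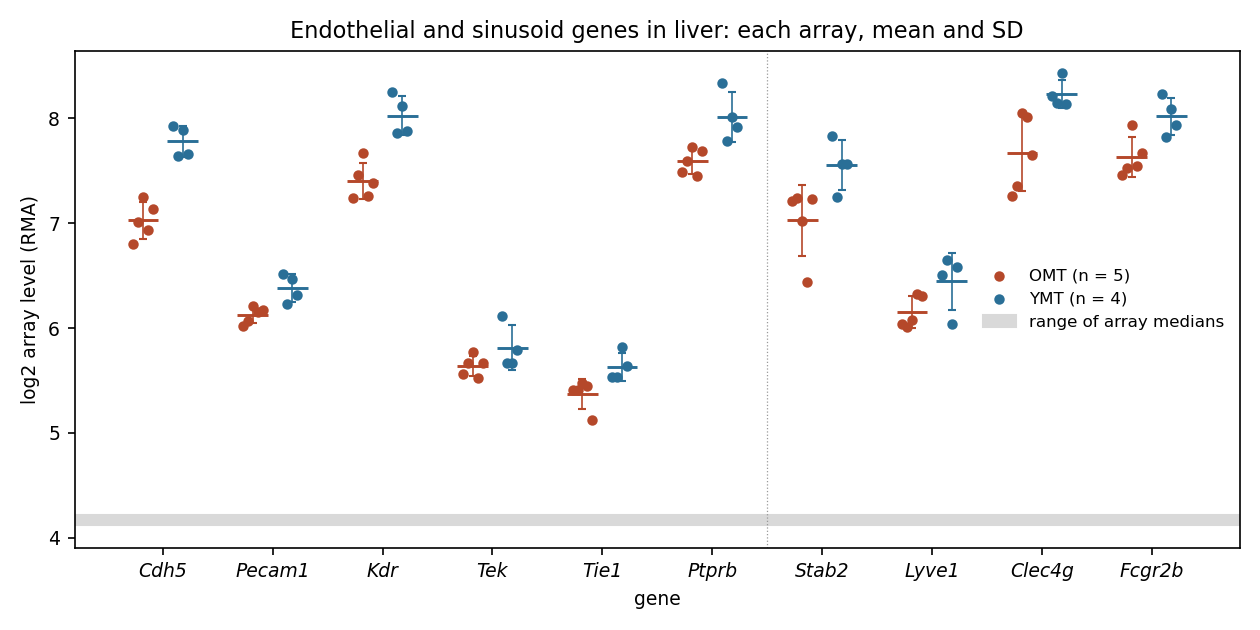
Log2 RMA level (y axis) of the 10 genes (x axis) on each liver array, with OMT (n = 5) left of YMT (n = 4) for every gene; points are arrays, bars are mean and SD, and the grey band is the range of array medians. The groups lie apart for 7 genes and overlap for Tek, Lyve1 and Fcgr2b.

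Of the junction genes, Cdh5 was the most clearly separated. Its log2 level was 6.80, 7.01, 7.25, 6.94 and 7.14 in the 5 OMT livers, against 7.93, 7.64, 7.89 and 7.66 in the 4 YMT livers. The highest OMT liver lay 0.39 below the lowest YMT liver. The difference was -0.75 ± 0.10 (log2, SE; 95% confidence interval -0.98 to -0.52), which puts OMT livers at 59.4% of YMT livers (adjusted p = 0.000768, limma). Cdh5 passed under all 20 other settings and subsets tried, with adjusted p between 0.000299 and 0.00845.

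Pecam1, the other junction gene, was lower by a narrow margin. Its level was 6.02, 6.07, 6.21, 6.15 and 6.17 in OMT livers, against 6.52, 6.23, 6.47 and 6.32 in YMT livers. The groups did not overlap, but the gap was 0.02, less than the SD of either group. The difference was -0.26 ± 0.08 (interval -0.44 to -0.09; adjusted p = 0.0416, limma). With single arrays left out the adjusted p ran from 0.0306 to 0.107 and passed only without OMT replicate 3 or YMT replicate 2. The call was also lost when both tissues were fitted together (adjusted p = 0.173), with no filter (0.0694), with each array centred on its median (0.0554) and without OMT replicates 1 and 2 (difference -0.21, adjusted p = 0.158), all by limma.

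Kdr, the VEGF receptor, was lower in OMT livers. Its level was 7.24, 7.46, 7.67, 7.26 and 7.38 in OMT livers, against 8.25, 7.86, 8.12 and 7.88 in YMT livers. Every OMT liver was below every YMT liver, by a gap of 0.19. The difference was -0.63 ± 0.11 (interval -0.87 to -0.38), or 64.8% of the YMT level (adjusted p = 0.00333, limma). The call held without any single array and was lost when both tissues were fitted together (adjusted p = 0.0938, limma), a fit that takes in the wide spread of Kdr in the intestine.

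The TIE receptors did not pass the test. Tek had levels of 5.56, 5.67, 5.77, 5.52 and 5.67 in OMT livers and of 6.12, 5.67, 5.67 and 5.79 in YMT livers. The groups overlapped, and YMT replicate 1 stood well above the others (difference -0.17 ± 0.10, interval -0.40 to 0.05, adjusted p = 0.266, limma). Tie1 had levels of 5.41, 5.41, 5.48, 5.45 and 5.12 in OMT livers and of 5.53, 5.53, 5.82 and 5.64 in YMT livers. These groups did not overlap, with a gap of 0.05 (difference -0.26 ± 0.09, interval -0.46 to -0.05, adjusted p = 0.083, limma). Tie1 passed with arrays weighted by quality (adjusted p = 0.0456, limma).

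Ptprb, the phosphatase that acts on TIE2, was lower in OMT livers. Its level was 7.49, 7.59, 7.73, 7.45 and 7.69 in OMT livers, against 8.34, 7.78, 8.01 and 7.92 in YMT livers. YMT replicate 1 was the highest by far and the gap between the groups was 0.05. The difference was -0.42 ± 0.11 (interval -0.67 to -0.18), or 74.6% of the YMT level (adjusted p = 0.0235, limma). The call was lost without OMT replicate 1 (adjusted p = 0.051, limma) and without YMT replicate 3 (adjusted p = 0.0546, limma). It was also lost when both tissues were fitted together (adjusted p = 0.135, limma) and without OMT replicates 1 and 2 (difference -0.39, adjusted p = 0.0893, limma).

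Of the 4 sinusoid genes, Clec4g and Fcgr2b passed the test. The level of Clec4g was 7.26, 7.36, 8.05, 8.01 and 7.65 in OMT livers, against 8.21, 8.15, 8.43 and 8.14 in YMT livers. OMT livers varied widely (SD 0.36, n = 5) while YMT livers lay close together (SD 0.14, n = 4), and the groups did not overlap. The difference was -0.57 ± 0.16 (interval -0.93 to -0.20), or 67.5% of the YMT level (adjusted p = 0.0352, limma). Without OMT replicates 1 and 2, the lowest pair, it was -0.33 (adjusted p = 0.101, limma), and with no filter the call was lost too (adjusted p = 0.0591, limma). The call was lost in 7 of the 9 fits with 1 array left out and kept without OMT replicate 3 or 4 (adjusted p 0.0172 to 0.0974 over the 9, limma).

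Fcgr2b had levels of 7.46, 7.53, 7.94, 7.55 and 7.67 in OMT livers, against 8.23, 7.82, 8.09 and 7.94 in YMT livers. OMT replicate 3 lay above YMT replicate 2, so that the groups overlapped by 0.12. The difference was -0.39 ± 0.11 (interval -0.64 to -0.14), or 76.3% of the YMT level (adjusted p = 0.0356, limma). This call too was lost in 7 of the 9 fits and kept without OMT replicate 3 or YMT replicate 2. Without OMT replicates 1 and 2 the difference was -0.30 (adjusted p = 0.149, limma), and the call was also lost with no filter (adjusted p = 0.0597, limma). Fcgr2b is also a B cell gene. Of 7 measured B and plasma cell markers, 3 passed the filter and 0 were called: Pax5 averaged 4.46 in OMT livers and 4.68 in YMT livers (difference -0.22 ± 0.08, adjusted p = 0.0872, limma), Cd79b 4.13 in OMT and 4.32 in YMT livers (-0.19 ± 0.11), and Mzb1 4.54 in OMT and 4.50 in YMT livers (0.04 ± 0.14). The markers Cd22, Jchain and Ms4a1 lay below the array median on all 9 liver arrays. The part of B cells in the difference of Fcgr2b was not tested.

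Stab2 was just short of the threshold. Its level was 7.21, 7.24, 7.02, 6.44 and 7.23 in OMT livers, against 7.83, 7.25, 7.57 and 7.57 in YMT livers. The highest OMT and the lowest YMT liver were 0.01 apart, and OMT replicate 4 lay far below the other OMT livers. The difference was -0.53 ± 0.17 (interval -0.91 to -0.15; adjusted p = 0.0544, limma), and without that array it passed (adjusted p = 0.0472, limma). It also passed without YMT replicate 2 (adjusted p = 0.0469, limma) and when both tissues were fitted together (adjusted p = 0.00882, limma). That joint fit takes in the intestine, where Stab2 lay below the array median with little spread (SD 0.04 in OMT and 0.02 in YMT). Its smaller p is therefore not added support for a difference in liver.

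Lyve1, the hyaluronan receptor shared with lymphatic vessels, had levels of 6.04, 6.01, 6.08, 6.33 and 6.31 in OMT livers and of 6.51, 6.65, 6.04 and 6.58 in YMT livers. YMT replicate 3 lay among the OMT livers and the other 3 YMT livers above all of them. The difference was -0.29 ± 0.13 (interval -0.57 to -0.01; adjusted p = 0.144, limma). It was -0.43 and passed without YMT replicate 3 (adjusted p = 0.0183, limma).

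**Figure D2:**
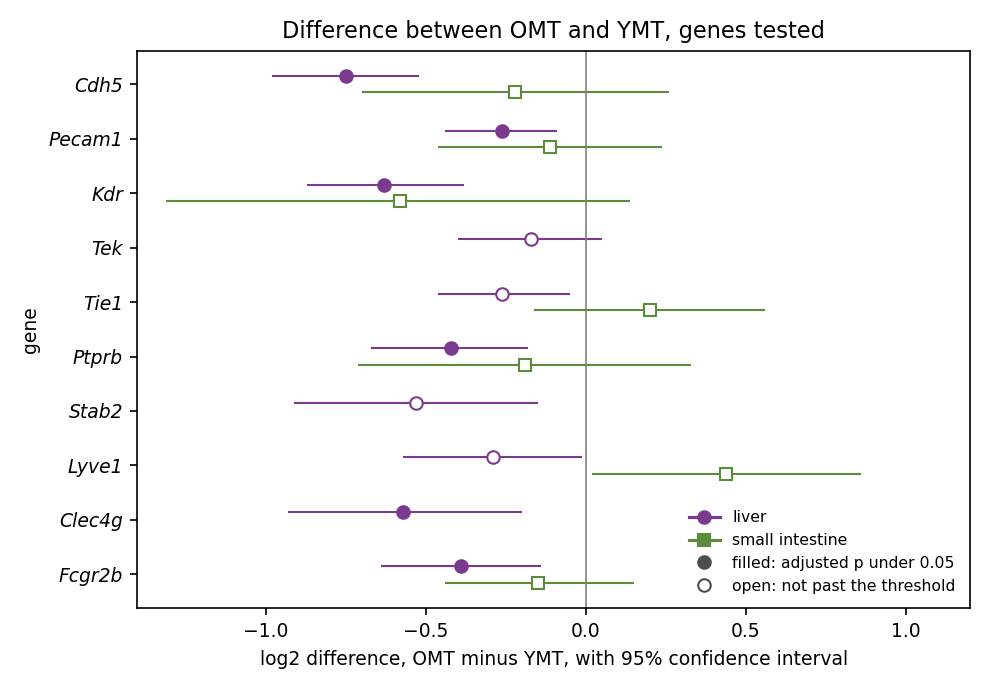
Log2 difference, OMT minus YMT (x axis), with its 95% confidence interval for each gene tested (y axis), in liver (upper, circles) and small intestine (lower, squares). Filled symbols have an adjusted p under 0.05: 6 genes in liver and none in intestine, where Tek, Stab2 and Clec4g were below the array median on every array and were not tested.

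Some of the genes shared variation within the groups, and others did not. After each group's mean was subtracted, the median Pearson correlation over the 45 pairs of genes was 0.32 across the 9 livers (range -0.69 to 0.93), and 33 pairs were above 0. Cdh5 and Fcgr2b correlated at 0.928, Kdr and Fcgr2b at 0.913, Tek and Ptprb at 0.91 and Cdh5 and Kdr at 0.908, while Tie1 and Lyve1 stood at -0.686 and Stab2 and Clec4g at -0.539. OMT replicate 3 was the highest OMT liver for 8 of the 10 genes, YMT replicate 1 the highest YMT liver for 7 and YMT replicate 2 the lowest for 8. These values share arrays and normalisation and are given as a description. Across all 9 livers with the group difference left in, the 5 genes whose pattern was most like Cdh5 were Eng (r = 0.987), Elf1 (0.984), Arsa (0.983), Ywhaz (0.982) and Kdr (0.979). For Stab2 they were Snx25 (0.979), Apbb2 (0.977), Ttc13 (0.972), Cpeb2 (0.967) and Pgap6 (0.964). With the group means removed, Elf1 stayed among the 5 most like Cdh5 (0.961) and Apbb2 among the 5 most like Stab2 (0.971). Among 13379 genes ranked in this way by likeness to Cdh5, Fcgr2b was number 14, Kdr 26, Pecam1 59 and Ptprb 186. Tek was number 1183, Clec4g 1522, Stab2 3976, Tie1 7755 and Lyve1 10530. The member most like Stab2, Ptprb, was number 1856.

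Further endothelial genes were lower in OMT livers as well. This list and those that follow were chosen with earlier results of these data known. Their counts are a description and not independent support for the result in the members. The shares over all genes tested in liver, 8.78% lower and 10.4% higher, belong beside each of these counts. Of 17 other pan-endothelial genes tested, 7 were lower and 0 higher, with a median log2 difference of -0.25. Endoglin (Eng), a co-receptor for TGF-beta family ligands, averaged 7.65 ± 0.18 in OMT livers and 8.33 ± 0.19 in YMT livers (SD, n = 5 and 4), a difference of -0.68 ± 0.11 (adjusted p = 0.00211, limma). The endothelial membrane protein gene Myct1 (-0.82 ± 0.11, adjusted p = 0.000759), the matrix glycoprotein gene Mmrn2 (-0.58 ± 0.10, adjusted p = 0.00267) and the sialomucin gene Emcn (-0.41 ± 0.11, adjusted p = 0.0309) fell in the same fit, and Egfl7 differed by -0.12 ± 0.11 (adjusted p = 0.495). The calls of Eng, Myct1 and Mmrn2 held without any single array, whereas that of Emcn was lost without OMT replicate 1, 3 or 5 or YMT replicate 3 or 4 and without OMT replicates 1 and 2 together (adjusted p = 0.051, limma). The mean level of this list was 5.09 to 5.27 on OMT liver arrays and 5.39 to 5.51 on YMT liver arrays, with no overlap.

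Other sinusoid genes were lower in OMT livers too. Of 17 tested, 7 were lower and 1 higher, with a median of -0.22. The secreted nuclease gene Dnase1l3 averaged 7.06 ± 0.15 in OMT livers and 8.14 ± 0.18 in YMT livers (SD, n = 5 and 4), a difference of -1.08 ± 0.10 (adjusted p = 8.72e-05, limma). Coagulation factor VIII (F8, -0.62 ± 0.10, adjusted p = 0.0014), the mannose receptor (Mrc1, -0.50 ± 0.07, adjusted p = 0.00102), the VEGF-C receptor VEGFR3 (Flt4, -0.43 ± 0.08, adjusted p = 0.00539) and stabilin-1 (Stab1, -0.38 ± 0.10, adjusted p = 0.0237) fell in the same fit. Stab1 and Mrc1 are macrophage genes as well, and Dnase1l3 is also made by macrophages and dendritic cells. The call of Stab1 was lost without YMT replicate 1, 3 or 4 and without OMT replicates 1 and 2 together (adjusted p = 0.0529, limma), while those of Dnase1l3, F8, Mrc1 and Flt4 held without any single array. The gene that was higher was Gata4 (0.41 ± 0.09, adjusted p = 0.0109, limma), a transcription factor of sinusoidal endothelium that hepatocytes also express.

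Within the VEGF pathway, 4 of 9 genes tested beside the member Kdr were lower and 0 higher (median -0.20). The co-receptor neuropilin-1 (Nrp1) averaged 7.92 ± 0.17 in OMT livers and 8.73 ± 0.18 in YMT livers (SD, n = 5 and 4), a difference of -0.81 ± 0.11 (adjusted p = 0.00061, limma). Vegfb, a ligand of VEGFR1, fell by 0.63 on the log2 scale (adjusted p = 0.0141, limma). The main ligand Vegfa, which hepatocytes make, differed by 0.22 ± 0.16 (adjusted p = 0.386, limma), and its other receptor Flt1 by -0.10 ± 0.14 (adjusted p = 0.642, limma). In the angiopoietin and TIE axis, without the members Tek, Tie1 and Ptprb, 1 of 7 genes tested was lower and the median was 0.08. The lower gene was the adaptor gene Grb14 (-0.70 ± 0.10, adjusted p = 0.000674, limma), which hepatocytes also express. The ligands Angpt1 and Angpt2 and the TIE1 ligand gene Svep1 lay below the array median on all liver arrays.

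Not all vascular lists had more genes lower than higher. Over all genes tested in liver, 8.78% were lower and 10.4% higher. A few calls in lists this short are given as a description and not as a result about a list. Endothelial transcription factors had 1 gene lower and 2 higher of 17 tested (median -0.03): the ETS factor Erg differed by -0.41 ± 0.13 (adjusted p = 0.0461, limma), a call lost without OMT replicate 2 or 4 or any 1 YMT replicate, and Gata6 was higher with Gata4 (0.35 ± 0.08, adjusted p = 0.0118, limma). Of 11 vascular Notch and ephrin genes, 0 were lower and 1 higher, the Notch target Hes1 (0.37 ± 0.11, adjusted p = 0.038, limma). The endothelial junction list leaves out the members Cdh5 and Pecam1, which were lower. Of its 11 genes tested, 0 were lower and 3 higher (median 0.04). These were F11r (0.54 ± 0.08, adjusted p = 0.00145), the catenin gene Jup (0.48 ± 0.09, adjusted p = 0.00403) and Jam2 (0.37 ± 0.11, adjusted p = 0.0387), of which F11r and Jup are also epithelial. Among 7 hyaluronan genes 1 was higher, the hepatocyte product Itih3 (1.11 ± 0.10, adjusted p = 4.92e-05, limma). Among 5 Fc gamma receptor genes 1 was lower, the neonatal Fc receptor gene Fcgrt (-0.43 ± 0.11, adjusted p = 0.0203, limma), and the activating receptor gene Fcgr3 differed by 0.26 ± 0.10 (adjusted p = 0.0825). Of 10 adhesion and activation genes 1 was lower, the interferon-induced chemokine gene Cxcl9 (-2.18 ± 0.41, adjusted p = 0.00408, limma), and the leukocyte adhesion receptor gene Icam1 differed by 0.24 ± 0.08 (adjusted p = 0.0521). Both calls among 4 lymphatic genes, lower for Reln (-0.77 ± 0.12, adjusted p = 0.00142, limma) and Flt4, are of genes that other lists hold too. The lists share further genes, among them Gata4, Maf, Nos3, Esam, Cldn5 and Thbd, which are counted in each list that holds them.

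**Figure D3:**
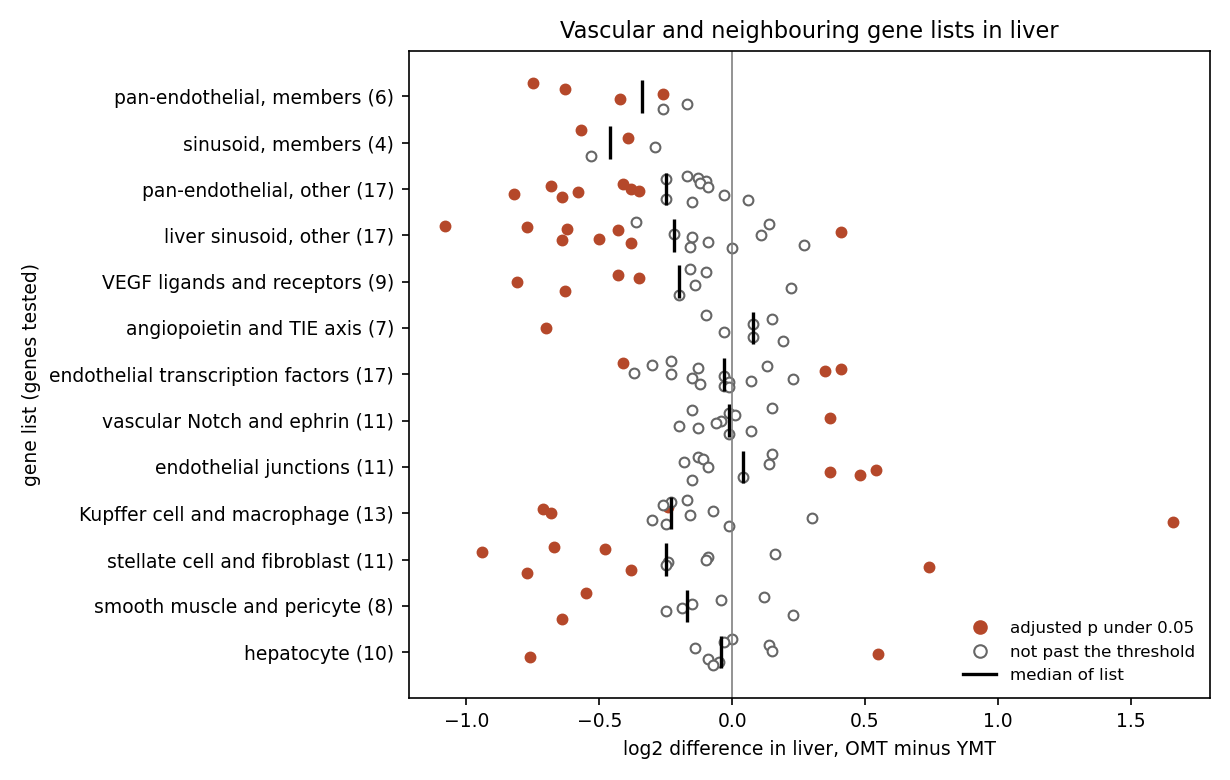
Log2 difference in liver, OMT minus YMT (x axis), of every tested gene in 13 lists (y axis, number tested in parentheses); filled points have an adjusted p under 0.05 and black bars are list medians. The members and the other pan-endothelial and sinusoid lists lie mainly left of 0. So do the VEGF, stellate cell, Kupffer cell and smooth muscle lists (medians -0.20, -0.25, -0.23 and -0.17). The junction, Notch and ephrin lists centre near 0. Lists not marked as members hold none of the 10 genes.

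Markers of other liver cells moved to different degrees beside these genes. The median log2 difference was -0.25 for stellate cell and fibroblast genes, with 9 of 11 below 0. It was -0.23 for Kupffer cell and macrophage genes (11 of 13 below 0) and -0.17 for smooth muscle and pericyte genes (6 of 8). These medians are near that of the other sinusoid genes (-0.22), while that of hepatocyte markers was -0.04. Of 10 hepatocyte markers 1 was lower (Pck1, -0.76 ± 0.16, adjusted p = 0.00749) and 1 higher (Hnf4a, 0.55 ± 0.11, adjusted p = 0.00683), and the list's mean level overlapped between the groups. Of 11 stellate cell and fibroblast genes 5 were lower, including the collagen genes Col3a1 (-0.94 ± 0.15, adjusted p = 0.00194) and Col1a1 (-0.67 ± 0.13, adjusted p = 0.00532), and 1 was higher, Pdgfra (0.74 ± 0.22, adjusted p = 0.0353), named after its values were seen. That list averaged 5.69 to 5.83 on OMT and 5.86 to 6.17 on YMT liver arrays, without overlap. Of 8 smooth muscle and pericyte genes 2 were lower, Tagln (-0.64 ± 0.14, adjusted p = 0.0115) and Acta2 (-0.55 ± 0.16, adjusted p = 0.0317), and the list averaged 5.05 to 5.29 in OMT and 5.25 to 5.44 in YMT livers. Of 13 Kupffer cell and macrophage genes 3 were lower, including Clec4f (-0.68 ± 0.09, adjusted p = 0.000534) and Cd5l (-0.71 ± 0.13, adjusted p = 0.0044), and 1 was higher, Marco (1.66 ± 0.19, adjusted p = 0.000241). Its mean level overlapped, at 6.37 to 6.67 in OMT and 6.51 to 6.69 in YMT livers. Of 3 cholangiocyte genes tested 1 was lower (Krt7, -0.30 ± 0.09, adjusted p = 0.0329), with list means of 4.03 to 4.26 in OMT and 4.03 to 4.23 in YMT livers. Of 6 enterocyte genes tested 1 was higher, the apolipoprotein gene Apoa4 (2.17 ± 0.23, adjusted p = 0.000166), which liver also expresses, and the list averaged 6.21 to 6.56 in OMT and 6.13 to 6.25 in YMT livers. The one red cell gene measured, Slc4a1, was 4.89 to 5.96 in OMT livers, highest in OMT replicates 1 (5.96) and 2 (5.37), and 4.34 to 5.00 in YMT livers (difference 0.46 ± 0.22, adjusted p = 0.169). Of the neutrophil and mast cell genes 0 of 1 tested was called. B cell, T and NK cell and platelet lists had 0 genes called of 3, 3 and 2 tested, and their mean levels were 3.81 to 3.99, 3.58 to 3.70 and 4.22 to 4.39 on OMT arrays, against 3.86 to 4.09, 3.66 to 3.90 and 4.02 to 4.17 on YMT arrays. The adjusted p-values of this paragraph are limma's. The part of these other cells in the endothelial result was not tested.

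**Figure D4:**
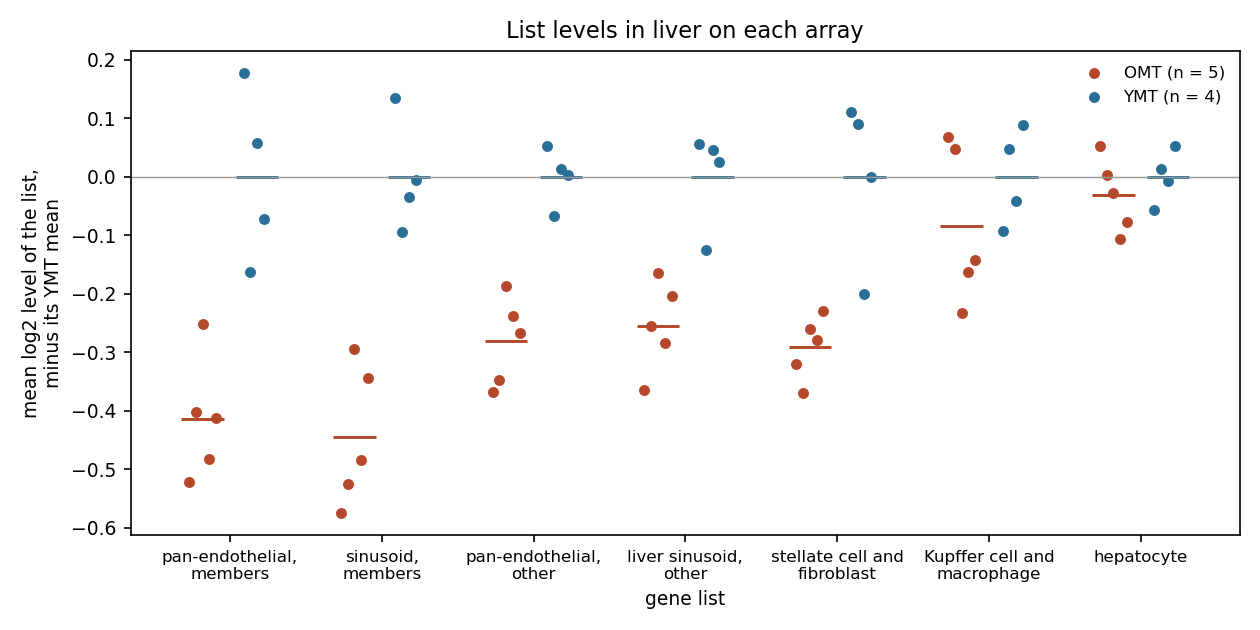
Mean log2 level of 7 gene lists (x axis) on each liver array, as the difference from the list's YMT mean (y axis), with OMT (n = 5) left of YMT (n = 4); points are arrays and bars are group means. The OMT and YMT livers lie apart for both sets of members, for the other pan-endothelial and sinusoid lists and for the stellate cell list, and overlap for the Kupffer cell and hepatocyte lists.

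In small intestine no difference was detected for these genes. Of the 7 that were tested, 0 were lower and 0 higher by limma's test, where 3.1% of the 13238 genes tested were lower and 1.04% higher in OMT intestines. At an unadjusted p of 0.05, 1 gene passed, Lyve1. Its p (0.0409, limma) ranked only 2722 among the 13238 genes, so that a p this small was common. For 0 genes did the groups lie apart, which was so in the lower direction for 6.84% of all genes and in the higher for 2.8%. The median difference was -0.15 over the 7 genes and -0.02 over all genes tested. With arrays weighted by quality 1 gene passed, Lyve1, and without OMT replicates 1 and 2 the median was 0.04. The intervals were wide: that of Cdh5 ran from -0.70 to 0.26 and thus holds both 0 and differences nearly as large as that in liver.

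Kdr had the widest spread in intestine. Its level was 5.14, 4.92, 5.36, 5.35 and 5.35 in OMT intestines, against 6.91, 5.17, 5.09 and 6.06 in YMT intestines. YMT replicates 1 and 4 stood above all OMT samples and YMT replicates 2 and 3 among them (difference -0.58 ± 0.33, interval -1.31 to 0.14, adjusted p = 0.311, limma). Cdh5 had levels of 4.98, 5.39, 5.48, 5.83 and 5.78 in OMT intestines and of 6.10, 5.33, 5.36 and 6.05 in YMT intestines, again with YMT replicates 1 and 4 highest (difference -0.22 ± 0.22, adjusted p = 0.582, limma). Pecam1 differed by -0.11 ± 0.16 (interval -0.46 to 0.24), Ptprb by -0.19 ± 0.23 (interval -0.71 to 0.33), Tie1 by 0.20 ± 0.16 (interval -0.16 to 0.56) and Fcgr2b by -0.15 ± 0.13 (interval -0.44 to 0.15).

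Lyve1 was the one gene of the 7 with an unadjusted p under 0.05 in intestine, and its mean was higher in OMT. Its level was 6.44, 6.67, 6.78, 7.30 and 7.17 in OMT intestines, against 6.67, 6.14, 6.24 and 6.67 in YMT intestines. The highest 3 samples were OMT and the lowest pair YMT, with the other samples between (difference 0.44 ± 0.19, interval 0.02 to 0.86, unadjusted p = 0.0409, adjusted p = 0.199, limma). With arrays weighted by quality it was 0.60 (adjusted p = 0.0474, limma). Stab2 read 3.74 on 7 of the 9 intestine arrays and at most 3.84 on the others, Clec4g lay between 3.07 and 3.85 and Tek between 3.48 and 4.18, all below the array medians.

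**Figure D5:**
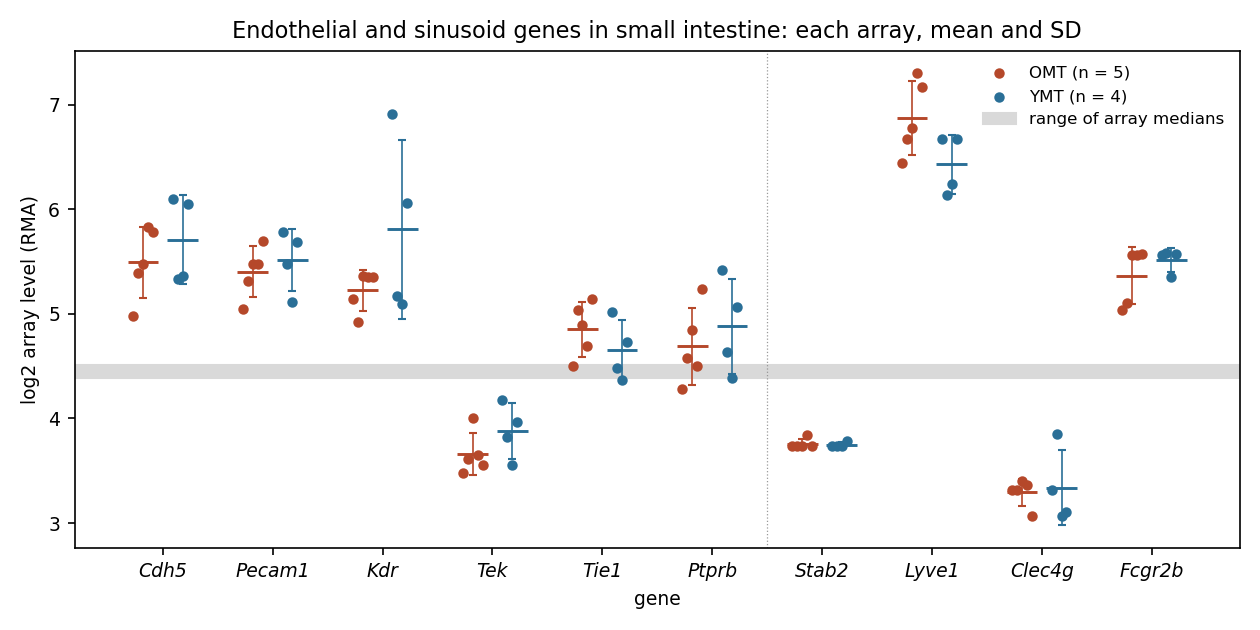
Log2 RMA level (y axis) of the 10 genes (x axis) on each small intestine array, with OMT (n = 5) left of YMT (n = 4); points are arrays, bars are mean and SD, and the grey band is the range of array medians. The groups overlap for all 10 genes, and Tek, Stab2 and Clec4g lie under the band.

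With group means removed, the median correlation over the 45 pairs was 0.58 in intestine (range -0.38 to 0.96; 36 pairs above 0), and Cdh5 and Lyve1 stood at 0.955. Clec4g was below 0 with 7 of the 9 other genes, and the pairs of Tek, Stab2 and Clec4g rest on values below the array medians. OMT replicate 1 was the lowest OMT sample for 8 of the 10 genes, YMT replicate 1 the highest YMT sample for 7 and YMT replicate 3 the lowest for 8. Of the other pan-endothelial genes 0 of 11 tested were called. On the list of other liver sinusoid genes 1 of 13 was lower, the stem cell factor receptor gene Kit (-0.64 ± 0.13, adjusted p = 0.0297, limma). Over all genes tested in intestine 3.1% were lower and 1.04% higher. Which intestinal cells carried Kit was not tested. The VEGF, angiopoietin and TIE, transcription factor, Notch and ephrin, junction and lymphatic lists had 0 genes called in intestine. Calls in the remaining vascular lists were lower for Fcgrt (-0.89 ± 0.17, adjusted p = 0.0201), the hyaluronan receptor gene Hmmr (-0.63 ± 0.15, adjusted p = 0.0498) and Cxcl9 (-1.85 ± 0.19, adjusted p = 0.00273), each in limma's test. Among the markers of other cells, 2 of 10 T and NK cell genes were lower, the granzyme genes Gzmb (-1.43 ± 0.27, adjusted p = 0.0219) and Gzma (-0.96 ± 0.22, adjusted p = 0.0394).

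Whether the OMT difference differed between the tissues was tested directly in a fit of all 18 arrays. Of the 7 members tested in both tissues, 0 passed at an adjusted p of 0.05 by limma's test, where 4.04% of 11965 genes had a lower and 7.91% a higher OMT difference in liver than in intestine. The lowest unadjusted p-values of the 7 by limma were those of Lyve1 (0.00621), Tie1 (0.0281) and Cdh5 (0.0465). The share of all genes with a p this low was not counted, and that of Cdh5 became 0.171 on adjustment over all genes. These unadjusted values are therefore not read as a result about the members. The difference of Lyve1, liver minus intestine, was -0.73 ± 0.24 (adjusted p = 0.0512), that of Cdh5 -0.53 ± 0.25 (adjusted p = 0.171), that of Tie1 -0.46 ± 0.19 (adjusted p = 0.127) and that of Kdr -0.04 ± 0.36 (adjusted p = 0.952). Lyve1 passed in 4 of the fits with 1 array left out, without intestine OMT replicate 1 (adjusted p = 0.023), intestine YMT replicate 1 (0.0447), liver OMT replicate 4 (0.0465) or liver YMT replicate 3 (0.0241). The result in Cdh5, Kdr, Ptprb, Pecam1 and Fcgr2b is therefore past the threshold in liver and not in intestine, with no difference between the tissues shown. Among the other pan-endothelial and sinusoid genes named here the tissues did differ for Mrc1 (-0.75, adjusted p = 0.0174, limma), Stab1 (-0.63, adjusted p = 0.02, limma) and Flt4 (-0.48, adjusted p = 0.0114, limma), whose OMT difference was lower in liver. Kit, from the same sinusoid list, differed in the opposite direction (0.75, adjusted p = 0.0366, limma). Results of this contrast for list genes that are not named are not given. For Eng (-0.44 ± 0.26, adjusted p = 0.284), Nrp1 (-0.47 ± 0.20, adjusted p = 0.135), Erg (-0.41 ± 0.18, adjusted p = 0.138) and Dnase1l3 (-0.39 ± 0.32, adjusted p = 0.453) the test was not passed.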

How the data were processed

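Gene expression was measured on 18 Affymetrix arrays, 5 OMT and 4 YMT samples of liver and of small intestine, from 250 ng of total RNA each. The deposited values are log2 levels. The submitters' processing notes name RMA and Affymetrix Expression Console; the version, and whether the authors normalised both tissues together, is not given in the sources used here. No 2 arrays were identical. The platform annotation gave 1 symbol to 23521 of 41345 probe sets (22180 genes), and 23328 of these probe sets had a symbol found in RefSeq. Signal over background is not part of these values, and the number of arrays limits the precision.

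Within each tissue, a probe set entered the test if it lay above the array median on at least 4 of 9 arrays, and the probe set with the highest mean stood for a gene. OMT and YMT were compared with limma 3.58.1 (lmFit and eBayes, R 4.3.3), with Benjamini-Hochberg adjustment over all genes tested and a threshold of 0.05; the difference between tissues was a contrast over all 18 arrays. Values are mean ± SD for levels and log2 difference ± SE for OMT minus YMT, with 95% intervals. The scripts were tested on simulated data. Alternatives were the filter, the variance settings, array weights, normalisation, probe set choice, the threshold, a replicate block and leaving out each array. Named genes were the 10 members, up to 3 genes with the smallest p per list and tissue, 11 further vascular genes, and the 5 genes most like Cdh5 and Stab2. The members and lists were chosen with earlier results of these data known.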

Additional observations from a re-analysis of the deposited data

Results flagged for a closer look

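Of 120 sets of samples of one gene, tissue and group, 11 held a sample far from the others by Dixon's ratio, and of the 40 for the members 6 did. The ratio flags about 1 in 20 sets of normally spread values, a rate that tied values below the array median need not follow. The sets outside the members are of genes called in these same data. These counts are therefore not read as an excess of far samples. In liver, Tie1 read 5.12 in OMT replicate 5, below 5.41 to 5.48 in the other OMT livers, and Stab2 read 6.44 in OMT replicate 4, below 7.02 to 7.24. Pck1 read 10.78 in YMT replicate 1, below 11.44 to 11.56 in the other YMT livers. Acta2 read 6.04 in liver OMT replicate 3, above 5.59 to 5.68, and in liver YMT replicate 2 Mrc1 read 7.31, below 7.41 to 7.42, and Myct1 read 5.89, below 5.93. In intestine, Stab2 read 3.84 in OMT replicate 4 and 3.78 in YMT replicate 4, above 3.74 in the rest of each group, and Clec4g read 3.07 in OMT replicate 5, below 3.32 to 3.40. All these intestine values of Stab2 and Clec4g lay below the array medians. Fcgr2b read 5.35 in intestine YMT replicate 3, below 5.56 to 5.58, and Cxcl9 read 5.23 in intestine OMT replicate 1, below 5.79 to 5.96.

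The OMT difference itself differed between the tissues, by limma's contrast of liver minus intestine, for 12 named genes outside the 10 members. It was lower in liver for Pck1 (-1.84, adjusted p = 0.00469), Reln (-0.87, adjusted p = 0.00916), Mrc1 (-0.75, adjusted p = 0.0174), Tagln (-0.70, adjusted p = 0.0323), Stab1 (-0.63, adjusted p = 0.02), Clec4f (-0.52, adjusted p = 0.00709) and Flt4 (-0.48, adjusted p = 0.0114). It was higher in liver for Marco (1.63, adjusted p = 7.32e-05), Kit (0.75, adjusted p = 0.0366), Hnf4a (0.62, adjusted p = 0.01), F11r (0.58, adjusted p = 0.0065) and Jup (0.58, adjusted p = 0.0074).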

How the results depend on the processing

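In liver, all members tested kept a lower OMT mean under every alternative run, and Cdh5 kept its call in all of them. The count of members called lower was 3 with no filter, 3 without OMT replicates 1 and 2 (chosen with earlier results of these data known) and 2 to 6 with 1 array left out. It was 4 with all 18 arrays in the fit and 8 at a threshold of 0.1. With array weights or quantile normalisation it was 7, and with the stricter filter 7 of 8 tested. Quantile normalisation gave 1492 genes lower and 1156 higher, so that 43.7% of calls were higher, against 54.2% as deposited. Without OMT replicates 1 and 2, liver Flt1 was 0.03. In intestine, genes lower and higher numbered 232 and 78 with no filter, 1080 and 365 with all 18 arrays, 804 and 368 with array weights, 949 and 382 at a threshold of 0.1, and 156 and 78 without OMT replicates 1 and 2; quantile normalisation gave 211 higher, and leaving out 1 array gave 113 to 481 lower and 37 to 155 higher. The intestinal median of the members was 0.44 under the strict filter (Lyve1 alone), 0.01 with array weights, 0.04 without OMT replicates 1 and 2, and -0.25 to -0.02 with 1 array left out; 1 member was higher with array weights. Signs turned there for Cdh5 (0.01), Ptprb (0.03) and Egfl7 (0.01) with array weights, for Pecam1 (0.04), Fcgr2b (0.05) and Egfl7 (0.02) without OMT replicates 1 and 2, for Egfl7 with 1 array left out (-0.08 to 0.01, turned without OMT replicate 2) and for Flt4 likewise (-0.02 to 0.08, turned without YMT replicate 2). Between tissues, 1 member (Lyve1) passed with trend and robust variances, at a threshold of 0.1 and without OMT replicates 1 and 2, and 0 to 2 with 1 array left out, where Tie1 joined it without intestine YMT replicate 1 (adjusted p = 0.0492, limma). Over all genes, the number that differed between tissues was 1429, and it was 2274 at a threshold of 0.1 and 949 to 1670 with 1 array left out. The contrast of Kdr ran from -0.41 to 0.20 with 1 array left out, turned without intestine YMT replicate 2 (0.17) or 3 (0.20) or liver YMT replicate 1 (0.03). The causes were not tested.

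Whether replicate numbers pair the samples was not tested. The deviations of same-numbered OMT and YMT livers correlated at -0.18 to 0.09, and of differently numbered ones at -0.2 to 0.26. For OMT and YMT intestines these ranges were -0.06 to 0.32 and -0.28 to 0.26. Between liver and intestine, same-numbered OMT samples stood at -0.04 to 0.08 and differently numbered ones at -0.1 to 0.15. For YMT samples the ranges between the tissues were 0.01 to 0.15 and -0.14 to 0.11. With replicate number added as a factor to the liver fit, 2 members were lower, with 719 genes lower and 740 higher. That fit matches OMT and YMT livers by number and leaves fewer samples' worth of information on the spread. In the contrast between tissues the block was another one, donor group and replicate number over both tissues. With it 1 member passed (Lyve1, adjusted p = 0.0436, limma).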
